A study of Homo sapiens with 42 samples.

Results

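MALAT1, NEAT1, KCNQ1OT1, NORAD and PVT1 are long non-coding RNAs that many human cells express at levels high enough to be counted in every library. They were taken here as 5 genes of the 58243 gene identifiers in the count tables, each found by the Ensembl identifier that carries its symbol, whatever its values. All 5 passed the filter on low counts in both fractions. K562, a human line from chronic myeloid leukaemia that grows on the BCR-ABL1 kinase, was left untreated (CTRL) or was treated with the BCR-ABL1 inhibitor imatinib at 1 μM (IM) for 1, 6 or 18 h, with 5 μM JTE-607 (JTE), which acts on the nuclease CPSF73 that cuts new transcripts at their 3′ ends, for 1, 6 or 18 h, or with 110 mM KCl, an osmotic stress, for 1 or 3 h. All 9 of these groups were sequenced as poly(A) mRNA of whole cells, and CTRL, IM 1h, IM 18h, JTE 1h and KCl 1h also as nuclear RNA depleted of ribosomal RNA, with 3 biological replicates in each of the 14 groups. All groups are the same line. By their labels they differ in treatment, time and RNA fraction, and the selection of RNA goes with the fraction. CTRL carries no time.

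Long non-coding RNAs are transcribed by RNA polymerase II like mRNAs but are not translated. MALAT1 is held in nuclear speckles, bodies rich in splicing factors. NEAT1 is the scaffold of paraspeckles, and only its long isoform builds them, whereas its short isoform ends at an early poly(A) site. KCNQ1OT1 is an unspliced antisense RNA of the imprinted KCNQ1 domain, transcribed from the paternal copy, where it keeps neighbouring genes silent. NORAD is a mostly cytoplasmic RNA that is known to bind RNA-binding proteins through a short repeated element. PVT1 lies next to MYC and is the host of several microRNAs.

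The count tables place MALAT1 (ENSG00000251562) at chr11:65497762-65506516 on the plus strand, as 8755 exon bases. NEAT1 (ENSG00000245532) lies upstream of it on the same strand, at chr11:65422774-65445540, with 22767 exon bases. KCNQ1OT1 (ENSG00000269821) spans chr11:2608328-2699994 on the minus strand, all 91667 bases of it counted as exon, inside the plus-strand gene KCNQ1. NORAD (ENSG00000260032) is a single exon of 5339 bases at chr20:36045622-36050960 on the minus strand. Positions are on hg38.

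These RNAs end in different ways, and the mRNA libraries were selected for poly(A) while the nuclear libraries were not. MALAT1 and the long NEAT1 isoform are known to get their main 3′ end without a poly(A) site: RNase P cuts in front of a tRNA-like small RNA, and an A-rich tract written in the genome closes the end. MALAT1 was nevertheless counted in every mRNA library. Both ends are shown, read from hg38 with the small RNAs that GENCODE 44 annotates (57 and 58 bases) in capitals and the 60 bases before them in lower case, on the plus strand.
MALAT1 3′ end, chr11:65506057-65506173: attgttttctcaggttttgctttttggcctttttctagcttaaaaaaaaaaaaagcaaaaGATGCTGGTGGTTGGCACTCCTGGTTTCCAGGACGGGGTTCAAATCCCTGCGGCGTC
NEAT1 long 3′ end, chr11:65445481-65445598: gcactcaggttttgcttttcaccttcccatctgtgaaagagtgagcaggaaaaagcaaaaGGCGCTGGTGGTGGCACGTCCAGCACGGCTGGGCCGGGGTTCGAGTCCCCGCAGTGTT
Of the last 20 bases before the small RNA, 17 are A in MALAT1 and 11 in NEAT1, and neither 60-base stretch holds AATAAA, the usual poly(A) signal. In the short NEAT1 isoform, 3740 bases from the start of the gene, and in NORAD the signal is present near the annotated end, as it is in the last 50 bases of 28.1% of the 252735 GENCODE 44 transcripts searched on the transcribed strand. Capitals mark AATAAA.
NEAT1 short 3′ end, chr11:65426454-65426513, plus strand: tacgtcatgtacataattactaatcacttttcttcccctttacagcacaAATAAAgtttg
NORAD 3′ end, chr20:36045622-36045681, minus strand: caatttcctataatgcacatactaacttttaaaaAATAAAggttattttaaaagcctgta

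This element was counted in the sequence of NORAD. Searched on the transcribed strand, with overlapping matches allowed, its exon held 15 matches to TGTANATA, where N is any base. Of 6338 GENCODE 44 transcripts within 500 bases of its length, 44.1% held at least 1 match and 3 held 15 or more, NORAD among them. In 3 places a pair of elements starts 9 bases apart, and these pairs are shown on the minus strand with the elements in capitals, since NORAD is known for them, and the other members were not searched.
NORAD pair at base 1442, chr20:36049488-36049535: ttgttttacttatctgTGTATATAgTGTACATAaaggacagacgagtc
NORAD pair at base 2639, chr20:36048291-36048338: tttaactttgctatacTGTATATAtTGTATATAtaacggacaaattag
NORAD pair at base 3275, chr20:36047655-36047702: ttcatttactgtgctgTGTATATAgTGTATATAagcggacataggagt

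The mRNA libraries held 16439848 to 22505595 counts, apart from KCl 1h replicates 2 and 3, which held up to 62953314, and the nuclear libraries held 16175394 to 25103205. All 8 erythroid markers of K562 were above 1 count per 1000000 (CPM) in both fractions, as were 6 of 11 markers of other cell types, and none of those 11 was at 0. The lowest count of any member in a library was 264, for KCNQ1OT1. Intervals and errors cover the spread between these libraries only. In such bulk samples, fewer cells that express an RNA and less of it per cell cannot be told apart.

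The first comparison asked where the members stood in untreated cells, and how far the nuclear libraries differed from the mRNA libraries. MALAT1 was the highest member in both, and the nuclear libraries held much more MALAT1, NEAT1 and KCNQ1OT1, but about as much NORAD. Per exon kilobase, mRNA CTRL held 304 ± 3.18 CPM of MALAT1 (SD, n = 3), 85.0 ± 2.59 of NORAD, 7.59 ± 2.68 of NEAT1, 7.41 ± 0.312 of PVT1 and 0.340 ± 0.0491 of KCNQ1OT1. NEAT1 and PVT1 overlapped in this order, while the other neighbours did not. The NEAT1 count joins both isoforms and was divided by 22767 exon bases, although the short isoform has 3740. Its level per kilobase, and its place in this order, therefore depend on the mix of isoforms, which was not tested. In nuclear CTRL the level per exon kilobase was 1502 ± 298 for MALAT1, 86.8 ± 4.31 for NORAD, 86.2 ± 1.62 for NEAT1, 11.1 ± 0.234 for PVT1 and 2.51 ± 0.187 for KCNQ1OT1, and here NORAD and NEAT1 overlapped.

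**Figure D1:**
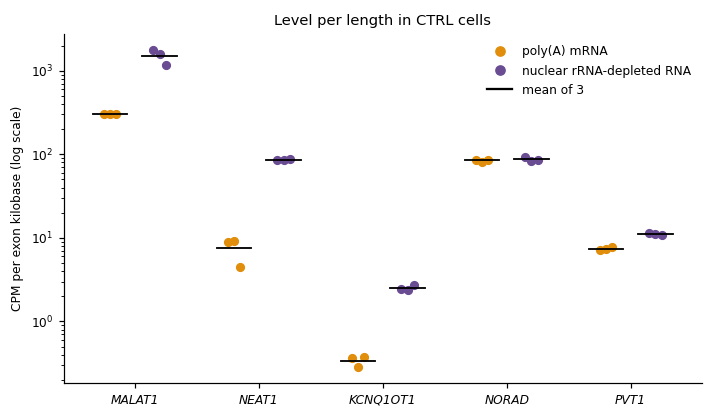
Level of each RNA in untreated K562 cells, in CPM per exon kilobase on a log axis, with 1 point per library and a line at the mean of 3 libraries, for poly(A) mRNA and for nuclear rRNA-depleted RNA. MALAT1, NEAT1 and KCNQ1OT1 sit well above their mRNA level in nuclear RNA, whereas the NORAD points of both fractions overlap.

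Nuclear CTRL against mRNA CTRL called 3 of the 5 members, where 44.9% of the 17905 genes tested were called. A gene was called when edgeR's quasi-likelihood test gave a Benjamini-Hochberg adjusted p under 0.05 and the log2 fold change lay beyond 0.6 in either direction. NEAT1 stood at 205, 210.5 and 103 CPM in the mRNA libraries and at 1930.3, 1954 and 2003 CPM in the nuclear libraries, a log2 fold change of 3.11 (SE 0.29, adjusted p 7.33e-05). KCNQ1OT1 rose from 33.3, 26.0 and 34.1 CPM to 225, 216 and 249 CPM, a log2 fold change of 2.50 (SE 0.13, adjusted p 3.76e-09). MALAT1 rose from 2629.8, 2685 and 2665 CPM to 15365, 13812 and 10278 CPM, a log2 fold change of 1.92 (SE 0.14, adjusted p 2.44e-07). None of these groups overlapped.

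NORAD was not called. It had 462, 438 and 462 CPM in mRNA and 489.7, 448 and 452 CPM in nuclear RNA, ranges that overlap, and its fitted log2 fold change of -0.36 (95% interval -0.57 to -0.15, adjusted p 0.00646) is on TMM-scaled library sizes, while the ratio of mean CPM was 1.02. PVT1 had 38.8 to 42.2 CPM in mRNA and 59.7 to 62.2 CPM in nuclear RNA, without overlap, yet its fitted log2 fold change of 0.20 had an interval of -0.03 to 0.44. Among the 2625 genes of this fit that GENCODE 44 classes as long non-coding RNA, 1487 were called higher in nuclear RNA and 110 lower, with a median log2 fold change of 0.99 against 0.02 over all genes. Of the 13 mitochondrial transcripts, which come from the cytoplasm, 10 were lower in nuclear CTRL, and their summed share of counts was 5.53% there and 8.90% in mRNA CTRL. Nuclear isolation, ribosomal RNA depletion and the lack of poly(A) selection cannot be told apart in this comparison.

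The next comparisons asked how the members responded to each treatment. All treated groups of a fraction share the same 3 CTRL libraries, and all libraries of a fraction were fitted together. Of the 40 tests in mRNA, 4 were called, 3 of them for KCNQ1OT1 and 1 for PVT1, and of the 20 tests in nuclear RNA, 1 was called, again for KCNQ1OT1. These counts are to be read against the share of all genes called, which differed by comparison. In mRNA it was 0.0166% in IM 1h, 9.94% in IM 6h and 30.5% in IM 18h. It was 0.851% in JTE 1h, 13.2% in JTE 6h, 5.39% in JTE 18h, 5.45% in KCl 1h and 11.9% in KCl 3h. In nuclear RNA the share was 0.0456% in IM 1h, 32.6% in IM 18h, 8.52% in JTE 1h and 23.8% in KCl 1h. MALAT1, NEAT1 and NORAD were called in none of the 12 comparisons with CTRL in the main edgeR fit.

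**Figure D2:**
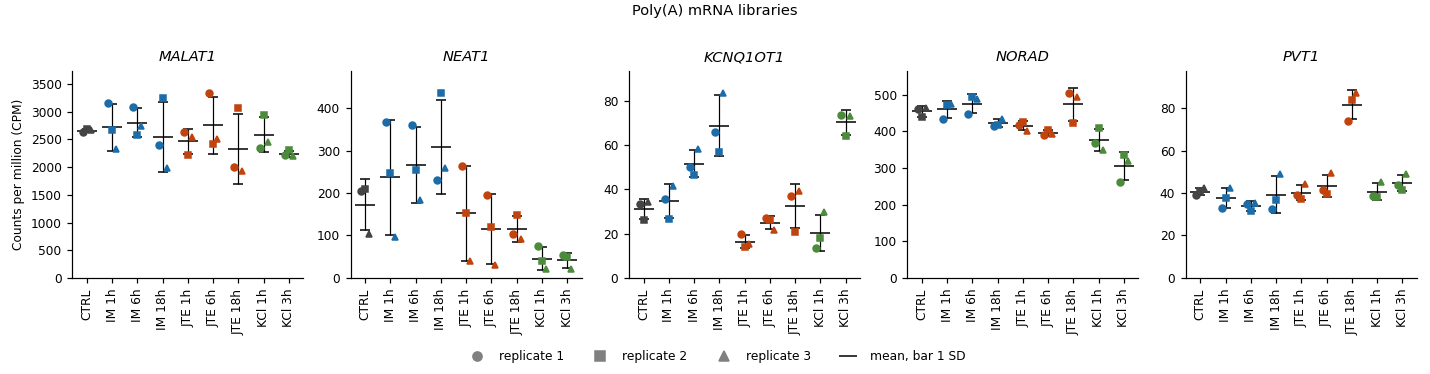
CPM of each RNA in the 27 poly(A) mRNA libraries, with 1 point per library (shape gives the replicate number), a dash at the group mean and a bar of 1 SD, n = 3 per group. KCNQ1OT1 is high in IM 18h and KCl 3h and low in JTE 1h, PVT1 stands apart in JTE 18h, and NEAT1 is lowest in both KCl groups with replicate 3 at the bottom of 8 of 9 groups.

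KCNQ1OT1 rose with imatinib in both fractions. Its mRNA level was 35.8, 26.4 and 41.7 CPM in IM 1h, 49.97, 46.7 and 58.2 CPM in IM 6h and 66.0, 56.8 and 83.6 CPM in IM 18h, beside 33.3, 26.0 and 34.1 CPM in CTRL. All IM 6h and IM 18h libraries lay above all CTRL libraries, while IM 1h overlapped them. The log2 fold change against CTRL was 0.15 at 1 h (SE 0.23, adjusted p 1.0, 0.0166% of genes called), 0.67 at 6 h (SE 0.23, adjusted p 0.0478, 9.94% called) and 1.11 at 18 h (SE 0.23, adjusted p 0.000467, 30.5% called). The call at 6 h was lost when any of the 6 libraries was left out (adjusted p 0.0703 to 0.186), whereas that at 18 h held in all 6 such fits.

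In nuclear RNA, KCNQ1OT1 was 2.05 times as high in IM 18h as in CTRL by mean CPM. It stood at 496, 463 and 455 CPM in IM 18h against 225, 216 and 249 CPM in CTRL, a log2 fold change of 0.97 (SE 0.10, edgeR adjusted p 1.07e-07), in a comparison that called 32.6% of genes. At 1 h the nuclear libraries held 219, 237 and 220.0 CPM, within the CTRL range, with a log2 fold change of 0.02 (95% interval -0.17 to 0.22), and 0.0456% of genes were called. KCNQ1 has introns opposite KCNQ1OT1, and the counting without strand could not separate its reads from those of KCNQ1OT1. Over its own exons KCNQ1 had a mean of at most 0.152 CPM in any group. That was in nuclear IM 18h, beside 0.0316 CPM in nuclear CTRL. The part of KCNQ1 intron reads in the KCNQ1OT1 counts was not tested.

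KCl gave KCNQ1OT1 2 different values in mRNA. In KCl 1h it stood at 13.7, 17.9 and 29.5 CPM, overlapping CTRL, with a log2 fold change of -0.59 (95% interval -1.06 to -0.11, adjusted p 0.170), where 5.45% of genes were called. Without KCl 1h replicate 3 it was called, at -0.92 (edgeR adjusted p 0.016). In KCl 3h it stood at 73.5, 63.9 and 73.2 CPM, above all CTRL libraries, with a log2 fold change of 1.21 (SE 0.23, adjusted p 0.000548), where 11.9% of genes were called. KCl 3h was higher than KCl 1h by 1.80 on the log2 scale (SE 0.23, adjusted p 3.5e-05), in a comparison that called 3.29% of genes. Nuclear RNA was made only for KCl 1h, and KCNQ1OT1 had 224, 224 and 255 CPM there, a log2 fold change of 0.04 (95% interval -0.16 to 0.24), where 23.8% of genes were called.

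Under JTE, KCNQ1OT1 was low at 1 h but was not called. JTE 1h held 19.7, 13.97 and 15.2 CPM, all below CTRL, with a log2 fold change of -0.90 (95% interval -1.38 to -0.41, adjusted p 0.0722), and only 0.851% of genes were called. DESeq2 called it (adjusted p 0.0208). The level in JTE 6h was 27.2, 26.3 and 21.5 CPM and that in JTE 18h was 37.2, 20.8 and 39.3 CPM, both overlapping CTRL, with log2 fold changes of -0.24 and -0.02, where 13.2% and 5.39% of genes were called. Nuclear JTE 1h had 221, 168 and 179 CPM, a log2 fold change of -0.28 (95% interval -0.48 to -0.09, adjusted p 0.0654, and 0.00493 with the replicate block), where 8.52% of genes were called.

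**Figure D3:**
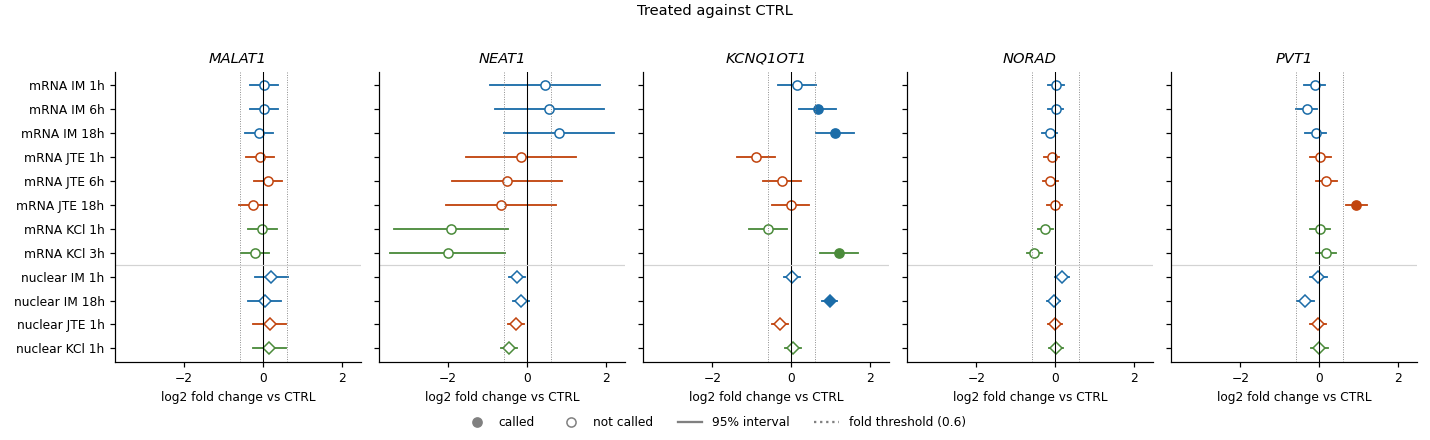
Log2 fold change against CTRL with its 95% interval from edgeR for each RNA in the 8 mRNA comparisons (circles) and the 4 nuclear comparisons (diamonds), filled where called, with dotted lines at the fold change threshold of 0.6. Filled symbols appear for KCNQ1OT1 in IM 6h, IM 18h, KCl 3h and nuclear IM 18h and for PVT1 in JTE 18h, and the intervals of NEAT1 in mRNA are the widest.

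Set against each other at the same time, IM and JTE differed for KCNQ1OT1. JTE 6h was lower than IM 6h by a log2 fold change of -0.91 (SE 0.23, edgeR adjusted p 0.00355), where 23.8% of genes were called, and JTE 18h lower than IM 18h by -1.13 (SE 0.23, adjusted p 0.00041), where 30.3% were called. In neither pair did the libraries overlap. KCl 1h and JTE 1h, both at or below the CTRL mean in mRNA, differed by 0.31 (95% interval -0.17 to 0.79), where 4.29% of genes were called. In nuclear RNA the same pair differed by 0.32 (95% interval 0.12 to 0.52, adjusted p 0.0200), below the fold change threshold, where 15.9% of genes were called. Between times, IM 6h against IM 1h gave 0.52 (adjusted p 0.136, 8.2% of genes called), IM 18h against IM 6h 0.44 (adjusted p 0.239, 4.41% called) and JTE 6h against JTE 1h 0.65 (adjusted p 0.0706, 9.23% called). The last was called with the replicate block, at 0.67 (edgeR adjusted p 0.0172), and the replicate numbers pair the libraries of these groups. No step of the imatinib course was called on its own.

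PVT1 (ENSG00000249859) was called against CTRL only in JTE 18h. It spans chr8:127794533-128101253 on the plus strand, with exons that cover 5493 bases. It stood at 74.0, 83.6 and 87.3 CPM in JTE 18h against 38.8, 41.0 and 42.2 CPM in CTRL, a log2 fold change of 0.94 (SE 0.13, edgeR adjusted p 4.74e-05). Of all genes, 5.39% were called in that comparison. All 3 JTE 18h libraries lay above the other 24 mRNA libraries, whose highest value was 49.5 CPM. JTE 18h was also higher than JTE 6h by 0.77 (SE 0.13, edgeR adjusted p 0.000169), where 13.4% of genes were called. It exceeded IM 18h by 1.02 (SE 0.13, edgeR adjusted p 1.37e-06), where 30.3% of genes were called. These 3 calls held in all fits that left out a library of the groups compared.

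At earlier times JTE left PVT1 near CTRL. JTE 1h had 39.1, 37.2 and 44.4 CPM and JTE 6h 41.2, 39.7 and 49.5 CPM, with log2 fold changes of 0.02 (95% interval -0.24 to 0.29) and 0.17 (95% interval -0.10 to 0.43). JTE 6h exceeded IM 6h by 0.49 (adjusted p 0.00496), which is below the fold change threshold, and the libraries of that pair did not overlap. IM 6h was the lowest mRNA group at 35.0, 31.4 and 35.5 CPM, all below CTRL, with a log2 fold change of -0.32 (adjusted p 0.0975). In nuclear RNA, PVT1 had 48.0, 56.3 and 46.2 CPM in IM 18h, all below the CTRL values of 62.2, 61.7 and 59.7 CPM, a log2 fold change of -0.35 (SE 0.10, adjusted p 0.00686) that passed the test but not the fold change threshold. No nuclear libraries were made for JTE 18h. Of the 144 PVT1 introns in GENCODE 44, 95 are longer than the 10000 bases that the alignment allowed, so read pairs across them could not be aligned as spliced in any library.

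NEAT1 had the widest spread among replicates of the 5 RNAs in mRNA. Replicate 3 was the lowest in 8 of 9 mRNA groups, at 103 CPM in CTRL, where replicates 1 and 2 held 205 and 210.5 CPM, and at 39.5 CPM in JTE 1h, where they held 263 and 153 CPM. In nuclear RNA replicate 3 was the lowest in 2 of 5 groups, and the 3 CTRL libraries lay within 1930.3 to 2003 CPM. The SE of a NEAT1 log2 fold change was accordingly 0.66 to 0.69 in mRNA and 0.10 in nuclear RNA.

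Both KCl groups had a lower mean of NEAT1 than any other group of the series. KCl 1h held 74.7, 38.7 and 21.9 CPM and KCl 3h 54.2, 48.8 and 21.0 CPM, all below the lowest CTRL library. JTE libraries overlapped them, with JTE 6h replicate 3 at 31.1 CPM and JTE 1h replicate 3 at 39.5 CPM. The log2 fold change was -1.93 at 1 h (95% interval -3.37 to -0.50, adjusted p 0.124) and -2.02 at 3 h (95% interval -3.46 to -0.57, adjusted p 0.0542), so neither was called. At 3 h it was called by DESeq2 (adjusted p 0.0178) and by edgeR in a fit of the 2 groups alone (0.0105). It was also called there among genes with a mean of 10 CPM or above (0.0388). The replicate block called it at 3 h (edgeR adjusted p 0.00216) and at 1 h (0.00532). As labelled, the replicate numbers do not pair the mRNA libraries with CTRL, which limits these block calls. With no filter it was called at 3 h (edgeR adjusted p 1.12e-49) and at 1 h (9.61e-44), values far below those of the other fits. KCl 1h against JTE 1h gave -1.78 (edgeR adjusted p 0.176), and a call of -1.66 (adjusted p 0.0204) with the block, where the numbers pair the libraries. With no filter that pair was called at -1.77 (edgeR adjusted p 1.01e-37). In nuclear RNA, KCl 1h held 1360.3, 1224 and 1626 CPM, again all below CTRL, a log2 fold change of -0.47 (SE 0.10, adjusted p 0.000678), which passed the test but not the fold change threshold.

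The KCl libraries differed from CTRL in other ways that move with these values. In KCl 3h, 10 of the 13 mitochondrial transcripts were called lower, and their summed share of counts was 5.23% ± 0.612 against 8.90% ± 0.354 in CTRL (SD, n = 3). The deepest libraries of the series were also of KCl 1h (replicates 2 and 3). The part of either in the KCl results was not tested, beyond fits on counts thinned to equal depth, in which the NEAT1 values were -1.91 and -2.01 and again uncalled.

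The mean of NEAT1 was above CTRL in each IM group and below it in each JTE group, without a call in the main edgeR fit. Its mRNA level was 367, 247 and 96.6 CPM in IM 1h, 361, 254 and 184 CPM in IM 6h and 231, 436 and 258 CPM in IM 18h, of which IM 18h alone did not overlap CTRL. The log2 fold changes of 0.45, 0.56 and 0.80 had adjusted p values of 1.0, 0.625 and 0.351. JTE 6h held 195, 119 and 31.1 CPM and JTE 18h 102, 149 and 91.2 CPM, with log2 fold changes of -0.51 and -0.67 (adjusted p 0.679 and 0.617). With no filter on low counts, edgeR called IM 18h (0.71, adjusted p 3.82e-07) and JTE 18h (-0.68, adjusted p 1.53e-05). These values are far below the 0.351 and 0.617 of the main fit on the same libraries, and JTE 18h overlapped CTRL. JTE 18h against IM 18h, whose libraries did not overlap, gave -1.46 (95% interval -2.87 to -0.05, adjusted p 0.0867). EdgeR called it with the replicate block (adjusted p 0.00692), although the replicate numbers do not pair the libraries of these groups. It was also called in a fit of the 2 groups alone (0.00704), among genes with a mean of 10 CPM or above (0.0467) and with no filter (6.9e-25). JTE 6h against IM 6h gave -1.07 (edgeR adjusted p 0.226), and a call of -1.31 (adjusted p 0.0189) with the block, where the numbers pair the libraries. With no filter that pair was called at -1.08 (edgeR adjusted p 3.23e-15).

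Nuclear NEAT1 was below CTRL in all 12 treated libraries. IM 1h held 1553, 1807 and 1411 CPM, JTE 1h 1751, 1587 and 1537 CPM and IM 18h 1786, 1922 and 1808 CPM, with log2 fold changes of -0.25, -0.28 and -0.16 (adjusted p 0.879, 0.0783 and 0.184). With the replicate block, whose numbers pair the nuclear JTE 1h libraries with CTRL, JTE 1h had an edgeR adjusted p of 0.0159. None of these reached the fold change threshold.

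NORAD was lowest in mRNA with KCl, by less than the fold change threshold. It stood at 369, 409 and 349 CPM in KCl 1h and at 261, 334 and 319 CPM in KCl 3h, all below the CTRL values of 462, 438 and 462 CPM. The log2 fold change was -0.25 at 1 h (SE 0.09, adjusted p 0.135) and -0.53 at 3 h (SE 0.09, adjusted p 0.000207). JTE 1h, JTE 6h and IM 18h also lay below all CTRL libraries, at means of 415, 395 and 422 CPM, with log2 fold changes of -0.09, -0.12 and -0.14 that did not pass the test. Leaving out KCl 3h replicate 2 took the value at 3 h to -0.63 and past the threshold. In the other mRNA groups its mean lay between 395 and 475 CPM, and in nuclear RNA between 463 and 499 CPM, with KCl 1h at 476, 482 and 440.3 CPM and a log2 fold change of 0.02 (95% interval -0.15 to 0.20).

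MALAT1 had the smallest ratio of highest to lowest group mean of the 5 RNAs in mRNA, 1.25. Its group means ran from 2240.1 CPM in KCl 3h to 2806 CPM in IM 6h in mRNA, 0.224% to 0.281% of all counts, and every group in that order overlapped its neighbour. The 95% intervals of its 8 log2 fold changes in mRNA lay between -0.61 and 0.48. KCl 3h was the lowest group, at 2218, 2308 and 2195 CPM, all below CTRL, with a log2 fold change of -0.21 (adjusted p 0.496). JTE 1h, at 2212 to 2628 CPM, also lay just below the lowest CTRL library (-0.07). JTE 18h against JTE 6h gave -0.38 (edgeR adjusted p 0.125), which became a call of -0.63 (adjusted p 0.0115) without JTE 18h replicate 2. In nuclear RNA MALAT1 took 1.32% to 1.48% of all counts.

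**Figure D4:**
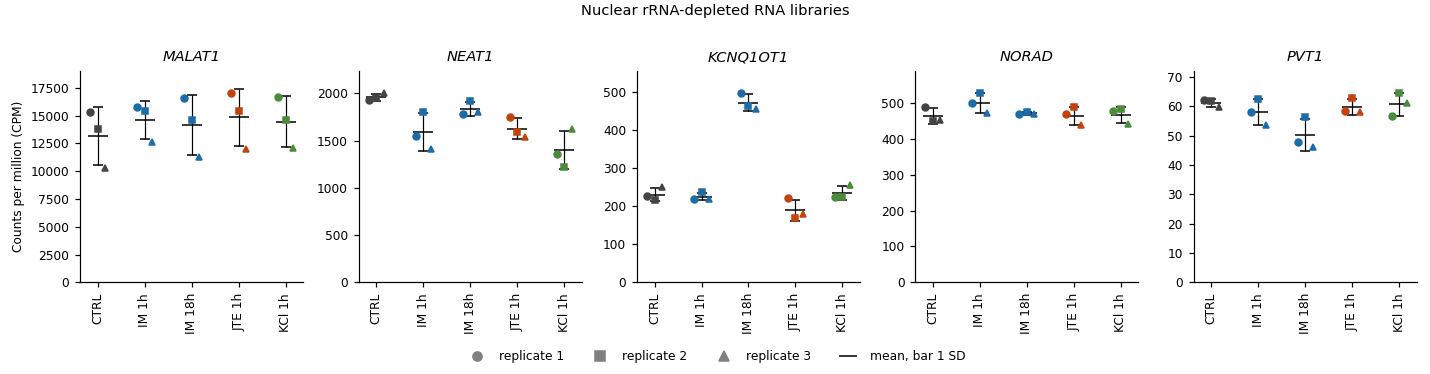
CPM of each RNA in the 15 nuclear rRNA-depleted RNA libraries, with 1 point per library (shape gives the replicate number), a dash at the group mean and a bar of 1 SD, n = 3 per group. MALAT1 replicate 1 is the highest and replicate 3 the lowest in all 5 groups, NEAT1 is highest in CTRL and KCNQ1OT1 stands apart in IM 18h.

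In nuclear RNA MALAT1 varied more between replicates than between groups. CTRL held 15365, 13812 and 10278 CPM and JTE 1h, the highest group by its mean, 17014, 15459 and 12038 CPM. Within each replicate number, the 12 treated libraries exceeded their CTRL library by 1.03 to 1.23 times. The log2 fold changes were 0.21 in IM 1h, 0.04 in IM 18h, 0.17 in JTE 1h and 0.15 in KCl 1h, with adjusted p values from 0.661 to 0.896, and with the replicate number as a block they remained uncalled (adjusted p 0.051 to 0.613).

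For the 4 treatments sequenced in both fractions, an interaction term asked if the response differed between them. None of the 20 tests was called by edgeR or by DESeq2, and 3 had an unadjusted p under 0.05. The share of all genes called was 0% in IM 1h, 0.0901% in IM 18h, 0.0605% in JTE 1h and 0.668% in KCl 1h. The nuclear minus mRNA difference of KCNQ1OT1 in IM 18h was -0.09 (95% interval -0.49 to 0.31), with rises of 0.97 and 1.11 in the separate fits. The 3 lowest unadjusted p values were those of KCNQ1OT1 in JTE 1h (0.64, interval 0.23 to 1.05, adjusted p 0.512), NEAT1 in KCl 1h (1.36, interval 0.12 to 2.59, adjusted p 0.449) and NEAT1 in IM 18h (-0.90, interval -1.73 to -0.07, adjusted p 0.964).

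Genes whose products act with the members, or that lie beside them, were described by list, and the counts are to be read against all genes: 3116 of 18095 were called higher and 2397 lower in mRNA IM 18h (30.5% in all), and 3777 of 21929 higher and 3375 lower in nuclear IM 18h (32.6% in all). Of 23 paraspeckle proteins tested, 1 was called higher and 1 lower in mRNA IM 18h, with a median log2 fold change of -0.36 against 0.04 over all genes, and 1 was called lower in KCl 3h. MATR3, a nuclear matrix RNA-binding protein, fell in 6 of 12 comparisons, by 1.31 in KCl 1h and by 1.29 in KCl 3h on the log2 scale. ZC3H6, a zinc finger protein, rose by 3.01 in mRNA IM 18h and 3.03 in nuclear IM 18h. None of the 3 subunits of cleavage factor I, which promotes the early NEAT1 poly(A) site (NUDT21, CPSF6 and CPSF7), was called by edgeR in the 12 comparisons of treated cells with CTRL, while NUDT21 and CPSF6 were lower in nuclear CTRL than in mRNA CTRL.

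In mRNA and nuclear IM 18h, 30.5% and 32.6% of all genes were called in either direction. Of 11 nuclear speckle proteins, 3 were called lower in mRNA IM 18h and the same number in nuclear IM 18h, with medians of -0.42 and -0.28 against 0.04 and 0 over all genes. They were SRSF1, SRSF2 and SRSF3, splicing factors that fell by 0.93, 1.07 and 0.86 on the log2 scale in mRNA. Of 16 factors of RNA 3′ end processing and nuclear decay, 5 were lower in mRNA IM 18h and 7 in nuclear IM 18h, with medians of -0.52 and -0.49 against 0.04 and 0 over all genes. POP1, the large protein subunit of RNase P, fell by 1.38 in mRNA IM 18h and 1.54 in nuclear IM 18h, and RPP40, another subunit, was lower in both (log2 fold changes of -1.18 and -1.38). EXOSC3, a cap subunit of the RNA exosome, was also lower in JTE 6h (-1.04, edgeR adjusted p 1.49e-05), where 13.2% of genes were called.

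Of 8 NORAD partners tested, 2 were called lower in mRNA IM 18h (PRPF19 and ALYREF, at -0.75 and -0.77), 3 in nuclear IM 18h and 1 in JTE 18h (RBMX, at -0.79). The shares of all genes called in these comparisons were 30.5%, 32.6% and 5.39%. Of the 7 genes beside NORAD, AAR2 was lower in IM 18h (-0.73) and SCAND1 in JTE 6h (-1.09) and JTE 18h (-1.03), while CNBD2 was higher in KCl 3h (1.90). Of all genes, 13.2% were called in JTE 6h and 11.9% in KCl 3h.

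In the imprinted domain of KCNQ1OT1, genes moved in both directions. Of 9 tested in mRNA IM 18h, 4 were called higher and 2 lower, where 30.5% of all genes were called, with a median of 0.16 against 0.04 over all genes. CDKN1C, a cell cycle inhibitor expressed from the maternal copy, rose from 6.08 ± 1.63 CPM in CTRL to 22.0 ± 8.77 CPM in IM 18h (SD, n = 3), a log2 fold change of 1.82. PHLDA2, a maternally expressed growth regulator, fell from 7.17 ± 2.97 to 0.813 ± 0.241 CPM (-3.17, edgeR adjusted p 9.78e-06). In KCl 3h, where KCNQ1OT1 also rose, none of the 9 was called in mRNA, with CDKN1C at 0.22 (SE 0.31). Fewer genes were called there in all, 11.9% against 30.5% in IM 18h. Whether the domain followed KCNQ1OT1 was not tested.

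Of the genes beside PVT1, 2 were tested in mRNA. MYC, the transcription factor gene, stood at 292 ± 71.2 CPM in CTRL and 194 ± 9.16 CPM in JTE 18h (SD, n = 3), where PVT1 rose, with a log2 fold change of -0.66 (SE 0.28, edgeR adjusted p 0.156). In IM 18h MYC fell to 100.1 ± 15.4 CPM (-1.58, adjusted p 0.00014), where PVT1 stood at -0.09. MYC was also lower in mRNA IM 6h (-1.54, edgeR adjusted p 0.000793), where PVT1 stood at -0.32. In nuclear IM 18h MYC stood at -1.71 (edgeR adjusted p 1.35e-06) and PVT1 at -0.35, and PVT1 was called in none of these. CCDC26, a long non-coding RNA gene further downstream, was lower in IM 18h (CPM 32.5 ± 7.40 in CTRL and 14.5 ± 0.757 in IM 18h, SD, n = 3) and fell by 0.89 on the log2 scale in JTE 6h. Beside MALAT1 and NEAT1, 3 of 9 genes were called higher and 2 lower in mRNA IM 18h, where 30.5% of all genes were called. LTBP3, a binder of latent TGF-beta, stood at 1.35 and ZNRD2 at -1.26.

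Among 17 other known long non-coding RNAs, MIR17HG, the host of the miR-17-92 cluster, was called in the most comparisons. It fell in 8 of 12, from 56.9 ± 10.2 CPM in mRNA CTRL to 5.66 ± 0.492 CPM in KCl 1h (SD, n = 3; log2 fold change -3.30, edgeR adjusted p 6.48e-07) and to 11.4 ± 5.07 CPM in JTE 1h (-2.28, adjusted p 0.000219). MIAT, a nuclear RNA, fell by 3.05 in KCl 1h and 2.17 in KCl 3h and rose by 1.29 in JTE 18h. FTX, another long non-coding RNA, rose by 0.68 in IM 6h and 0.74 in IM 18h.

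Over the 2414 genes of the mRNA fit that GENCODE 44 classes as long non-coding RNA, 743 were called higher and 146 lower in IM 18h (36.8%, against 30.5% of all genes), with a median log2 fold change of 0.52 against 0.04 over all genes. In KCl 3h, 122 were higher and 430 lower (22.9%, against 11.9%), with a median of -0.34 against 0.02. In JTE 18h, 6.42% were called, against 5.39% of all genes. KCNQ1OT1 was among those higher in KCl 3h.

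The patterns of the members over the 27 mRNA libraries were described by the Pearson correlation of log2(CPM + 0.5) with 8725 other genes, points that share library and treatment. Nearest to NEAT1 were PAXIP1-DT (r = 0.91, Spearman's rho 0.89), DCAF8 (r = 0.88, rho 0.84) and ZRANB2 (r = 0.88, rho 0.78). Nearest to KCNQ1OT1 were THUMPD3-AS1 (r = 0.78, rho 0.77), RSRP1 (r = 0.77, rho 0.75) and DUSP1 (r = 0.75, rho 0.69). Nearest to NORAD were OVCH1-AS1 (r = 0.96, rho 0.95), ZSWIM1 (r = 0.90, rho 0.81) and ZBTB6 (r = 0.86, rho 0.76).

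Nearest to PVT1 were PYGL (r = 0.89, rho 0.74), GNL1 (r = 0.86, rho 0.76) and CMBL (r = 0.86, rho 0.67). MALAT1 had no close neighbour, with LIN9 (r = 0.59, rho 0.62), ETAA1 (r = 0.57, rho 0.62) and ING3 (r = 0.56, rho 0.55) first. Among the members themselves, r ran from -0.40 for MALAT1 with PVT1 to 0.56 for NEAT1 with NORAD.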

How the data were processed

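The authors deposited raw counts of read pairs per gene. Reads were trimmed and deduplicated with fastp, aligned to hg38 with STAR, keeping unique alignments with introns of at most 10000 bases, and counted over exons with featureCounts without a strand option, although the libraries keep strand. Antisense reads are therefore counted for a gene, pairs on exons of several genes are lost (MALAT1 shares 6.26% of its exon bases with other genes, NEAT1 2.13%, KCNQ1OT1 1.23%, PVT1 8.79% and NORAD 0%), and removing duplicates by sequence may cost abundant RNAs such as MALAT1 true reads. The annotation release is not given in the sources used here. No count column was without a sample.

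CPM are counts per 1000000 of a library's total. The test was the quasi-likelihood test of edgeR 4.0.16 (R 4.3.3; robust, TMM, filterByExpr), on 18095 genes in 27 mRNA libraries and 21929 in 15 nuclear libraries, with 1 term per group. Differences between fractions used the 6 CTRL libraries, and differences between responses an interaction over 12 libraries. The steps were tested on simulated data. Replicate pairs differed by more than sampling noise, so each library counted once. Alternatives were DESeq2 1.42.0 (the study's tool), other scalings and filters, no fold change threshold, 2-group fits, a replicate block, thinned counts and leaving out each library.

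The titles give each library a replicate number. Deviations from group means were correlated between each treated group and CTRL of equal number. In nuclear RNA this gave 0.234 to 0.891, all 4 comparisons above 0.1, so the numbers were taken to pair those libraries. With nuclear IM 18h, however, only 2 of the 3 CTRL libraries correlated best with the library of their own number. All 3 did so with KCl 1h, IM 1h and JTE 1h. In mRNA the correlations ran from -0.367 to 0.877 with CTRL, and none of the 8 comparisons had every pair above 0.1. Every pair was above 0.1 in 20 of all 36 pairs of mRNA groups. These include the comparisons between times other than IM 18h against IM 6h, KCl 1h against JTE 1h and JTE 6h against IM 6h, for which the numbers pair the libraries. The study's own list of library totals has mRNA CTRL replicates 1 and 2 in the other order than the deposited names, which were kept. The mRNA correlations with CTRL ran from -0.367 to 0.0786 for replicates 1 and 2 and from 0.0545 to 0.877 for replicate 3. Whether exchanging replicates 1 and 2 of CTRL would pair the mRNA libraries with it was not tested. The blocked fit holds all 27 mRNA libraries, CTRL included, and the nuclear one all 15 nuclear libraries. Among all 10 pairs of nuclear groups, 7 had every replicate above 0.1. The others were IM 18h with KCl 1h, IM 1h and JTE 1h, where replicate 2 gave 0.0607, 0.00992 and 0.0755.

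The members and gene lists were chosen with earlier results of these data known. Named were the members in every comparison, from each list at most 4 genes called in the most comparisons with CTRL, and for each member the 3 genes of highest Pearson correlation. NUDT21, CPSF6, CPSF7 and KCNQ1 were named in addition, for their role, after values were seen. Where a symbol had several identifiers, that with the most mRNA reads was used. Some genes are not reported here.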

Additional observations from a re-analysis of the deposited data

Results flagged for a closer look

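Effects of the same treatment differed between times for 2 members, each tested directly. KCNQ1OT1 in mRNA was higher in KCl 3h than in KCl 1h by 1.80 on the log2 scale, higher in 3 of 3 libraries than in any KCl 1h library. PVT1 in mRNA was higher in JTE 18h than in JTE 6h by 0.77, again in 3 of 3 libraries.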

How the results depend on the processing

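With no filter on low counts, 9 of 40 mRNA tests against CTRL were called instead of 4 and 6 of 20 tests between treatments instead of 3. With the replicate block these counts were 7 and 6. Without the fold change threshold, 3 of 20 nuclear tests against CTRL were called instead of 1, and 5 between treatments instead of 3. Most of the added mRNA calls were NEAT1: under the block, KCl 1h gave -2.02 (adjusted p 0.00532) and KCl 3h -2.07 (adjusted p 0.00216), beside KCNQ1OT1 in JTE 1h at -0.89 (adjusted p 0.0151). As labelled, the replicate numbers do not pair the mRNA libraries with CTRL, which limits these block calls. The block also called KCNQ1OT1 in JTE 6h against JTE 1h, as thinned counts did, and NEAT1 in KCl 1h against JTE 1h and in JTE against IM at 6 and 18 h. For JTE 18h against IM 18h the replicate numbers do not pair the libraries. The block changed no call in nuclear RNA. Leaving out each library in turn gave 3 to 6 calls of 40 in mRNA and 2 to 3 between times, and the counts with all libraries elsewhere (1 in nuclear RNA, 3 between treatments, 3 between fractions and 0 between responses). Calls were followed one by one in the other settings and in fits without a library of the groups compared. There the only call lost was KCNQ1OT1 in IM 6h, also with RLE scaling and without genes over 1% of the counts. No call changed direction there. The count of mRNA calls against CTRL also fell to 3 without some libraries of other groups, such as KCl 1h replicate 2 and KCl 3h replicate 1. Which call was lost in those fits is not reported here. Fold changes not called changed sign in 131 of the alternative fits. Keeping only genes at a mean of 10 CPM or above lowered the counts over all genes, in mRNA from 1799 to 860 in IM 6h, 5513 to 2416 in IM 18h, 2388 to 677 in JTE 6h, 975 to 345 in JTE 18h, 986 to 92 in KCl 1h and 2150 to 478 in KCl 3h, in nuclear RNA from 7152 to 2788 in IM 18h, 1868 to 64 in JTE 1h and 5227 to 254 in KCl 1h, and from 8034 to 2367 between fractions. JTE 1h in mRNA ranged from 5 (2 groups alone) to 258 (block) around 154. The lowest count of NEAT1 in an mRNA library was 425.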
